A study of Homo sapiens with 7 samples.

Results

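Mitochondrial ribosomal protein genes were followed in PC3 TRIPZ-MITFA cells cultured with and without doxycycline. The members were all array probes whose gene symbol in the platform annotation starts with MRPL or MRPS and a digit, and 107 probes with 78 gene names fulfilled this among the 47323 probes of the signal table. The annotation used here covers the 19337 probes that passed the detection limit and were tested, so a member among the other probes cannot be named. Of the 78 names, 76 are protein-coding genes (105 probes), of which 48 belong by name to the large subunit (MRPL) and 28 to the small subunit (MRPS). The remaining 2 names are MRPL20-AS1, an antisense RNA with a log2 fold change of 0.05, and MRPS31P5, a pseudogene with a log2 fold change of 0.02. Both stayed in the probe counts and were left out of the values per gene.

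PC3 is a human line derived from a bone metastasis of prostate cancer. The cells of both groups carried a lentiviral TRIPZ cassette from which doxycycline switches on HA-Flag-tagged MITF (MITFA, an isoform of the transcription factor MITF), so the No dox cells are not parental PC3 cells. RNA of untreated cells (No dox, replicates 2, 3 and 4) and of cells given doxycycline (Dox, replicates 1 to 4) was hybridized to Illumina HumanHT-12 v4 BeadChips, on which each transcript is read by probes of fixed sequence. The study set out to find genes that respond to MITFA, and No dox replicate 1 was not analysed here. The dose and duration of doxycycline are not stated for these arrays. Cells that lack the cassette and received doxycycline were not analysed here, so an effect of the drug and an effect of MITFA cannot be told apart. Nothing in the sources used here says that the arrays came from separate cultures, and the p-values may therefore rest on technical spread.

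The mitochondrial ribosome makes the small set of respiratory chain subunits encoded by mitochondrial DNA. Its RNAs come from the mitochondrial genome, while all its proteins are encoded in the nucleus, translated in the cytosol and imported. Tetracyclines such as doxycycline bind the small subunit of bacterial ribosomes and also inhibit translation in mitochondria, and the small subunit decodes the messenger while the large subunit joins the amino acids. The arrays read the messengers of the nuclear genes and not mitochondrial translation or the amount of ribosome, and lower RNA per cell cannot be told apart from fewer cells that express a gene.

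On each array 15562 to 16618 probes passed the detection limit (detection p-value under 0.01), and the arrays correlated at 0.9938 to 0.9956 on the log2 scale. Of the PC3 check genes, KRT8, EPCAM, VIM and CD44 were detected on all 7 arrays. PECAM1, an endothelial gene, was detected on 7 arrays and ALB, a liver gene, on 6, both at a mean log2 signal of 4.83 to 5.21 in the groups. No tested probe carried the names KRT18, KLK3 or PTPRC. On the log2 scale the MITF probe had a mean of 6.82 ± 0.11 without (SD, 3 arrays) and 6.76 ± 0.12 with doxycycline (SD, 4 arrays). Whether this probe reads the transcript of the cassette is not known here, so it does not check the labels.

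The sequences before the start of 6 member genes are shown because they belong to the 4 genes whose brightest probe reached an unadjusted p under 0.05 (MRPS23 and MRPS25, MRPL16 and MRPL12) or serve as examples of windows with letters that MITF-type factors bind (MRPL30 with the M-box, MRPL37 with TCACGTGA). Other members with these letters are named with the windows at the end. They run from 250 bases before the start of the gene to 10 bases after it, are credited to RefSeq (GRCh38.p14), and read 5′ to 3′ on the strand of the gene. Capitals mark matches, on either strand, to the letters searched: CACGTG and CATGTG (E-boxes), TCATGTG (the M-box, which contains CATGTG), TCACGTGA (which contains CACGTG), GCGCATGCG (NRF1), CCGGAAG (ETS factors) and ATGGCGG (YY1). The stretches lie at chr17:57850035-57850294, minus strand (MRPS23), chr3:15065306-15065565, minus strand (MRPS25), chr11:59810769-59811028, minus strand (MRPL16), chr17:81703117-81703376, plus strand (MRPL12), chr2:99180934-99181193, plus strand (MRPL30) and chr1:54199917-54200176, plus strand (MRPL37).
MRPS23: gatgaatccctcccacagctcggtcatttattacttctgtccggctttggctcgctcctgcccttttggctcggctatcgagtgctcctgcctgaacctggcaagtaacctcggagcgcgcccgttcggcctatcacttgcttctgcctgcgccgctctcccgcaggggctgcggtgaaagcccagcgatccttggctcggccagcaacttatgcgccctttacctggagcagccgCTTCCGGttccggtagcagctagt
MRPS25: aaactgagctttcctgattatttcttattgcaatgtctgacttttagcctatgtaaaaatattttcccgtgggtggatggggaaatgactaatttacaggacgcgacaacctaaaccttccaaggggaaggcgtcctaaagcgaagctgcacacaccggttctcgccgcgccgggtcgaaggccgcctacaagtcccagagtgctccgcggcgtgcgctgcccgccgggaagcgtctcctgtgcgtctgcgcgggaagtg
MRPL16: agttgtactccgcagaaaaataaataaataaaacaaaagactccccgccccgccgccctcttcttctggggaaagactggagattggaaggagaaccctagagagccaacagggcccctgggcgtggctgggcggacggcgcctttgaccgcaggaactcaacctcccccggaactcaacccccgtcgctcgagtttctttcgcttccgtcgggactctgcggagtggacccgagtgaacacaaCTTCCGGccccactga
MRPL12: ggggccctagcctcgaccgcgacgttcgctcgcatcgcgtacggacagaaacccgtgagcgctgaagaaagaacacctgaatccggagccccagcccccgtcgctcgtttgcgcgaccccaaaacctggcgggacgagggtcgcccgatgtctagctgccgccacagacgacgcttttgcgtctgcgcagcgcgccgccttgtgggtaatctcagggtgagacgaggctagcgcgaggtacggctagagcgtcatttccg
MRPL30: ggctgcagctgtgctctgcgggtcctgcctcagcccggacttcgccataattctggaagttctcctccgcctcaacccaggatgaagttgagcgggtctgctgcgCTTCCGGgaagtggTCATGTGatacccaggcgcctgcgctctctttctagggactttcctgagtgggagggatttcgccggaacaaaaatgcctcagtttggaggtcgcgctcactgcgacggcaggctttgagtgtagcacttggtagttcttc
MRPL37: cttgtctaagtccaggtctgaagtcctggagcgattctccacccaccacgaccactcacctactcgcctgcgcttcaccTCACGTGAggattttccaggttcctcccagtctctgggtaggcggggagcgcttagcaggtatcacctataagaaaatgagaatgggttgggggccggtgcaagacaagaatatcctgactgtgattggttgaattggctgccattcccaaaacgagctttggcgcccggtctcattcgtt

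In these stretches the capitals of MRPS23 and MRPL16 are CCGGAAG on the other strand, starting 14 and 6 bases before the start of the gene. MRPL30 holds CCGGAAG on the other strand and the M-box, 145 and 131 bases before its start, and MRPL37 holds TCACGTGA 171 bases before its start. MRPS25 and MRPL12 hold none of the letters searched. A match is a description of letters and says nothing about binding in these cells.

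No mitoribosomal member was called in either direction in the main fit, while MRPS23 was called lower under 4 alternatives given below. With limma and Benjamini-Hochberg adjustment over all 19337 tested probes, 0 of 107 member probes were higher in Dox at an adjusted p under 0.05, where 26 probes (0.134%) of all tested were, and 0 were lower, where none (0.0%) of all tested were. The lowest adjusted p of a member was 0.376. The study itself reported 101 probes with a differing signal and 25 downregulated genes. A fit of the authors' processed values called 101 probes, 25 of them lower, so the main fit departs from the study's result. At an unadjusted p under 0.05, 5 member probes were higher, beside 4.49% of all tested probes, and 3 were lower, beside 4.0%. The shares over the members were 4.67% and 2.8%. The higher ones include probes of MRPL10, MRPL3 and MRPL55 that were detected on none of the No dox arrays. These passed the filter through the Dox arrays alone, so the count of higher probes is set in part by the filter. With detection required on every array of a group, 2 of 102 member probes were higher.

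The 95% intervals give a range for the change of each member on these arrays. They were taken probe by probe, with no adjustment for the number of probes. Like the p-values, they may rest on technical spread. Of the members, 103 probes were detected on at least 1 array of each group, and the other 4 have no bound of this kind. For all 103 the 95% interval of the fold change lay within 1.5-fold in either direction, which held for 98.0% of the 16519 tested probes detected in both groups. The outermost bounds were -0.55 (MRPS23) and 0.49 (MRPL47) on the log2 scale, where 1.5-fold is 0.585. A limit of 1.2-fold held the interval of 63 of these member probes (61.2%), against 43.8% of tested probes detected in both groups, and of 49 of the 76 genes (64.5%), when each gene was read by its brightest tested probe. Member genes are bright and vary little on these arrays. Their median residual SD was 0.0717 on the log2 scale, against 0.109 over all 11389 named genes, and their median log2 signal was 9.17 against 6.90. This is not particular to them. Of the 69 genes of cytosolic ribosomal proteins, 69.6% had an interval within 1.2-fold and 100% within 1.5-fold. Their median residual SD was 0.0813 and their median log2 signal 11.5.

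**Figure D1:**
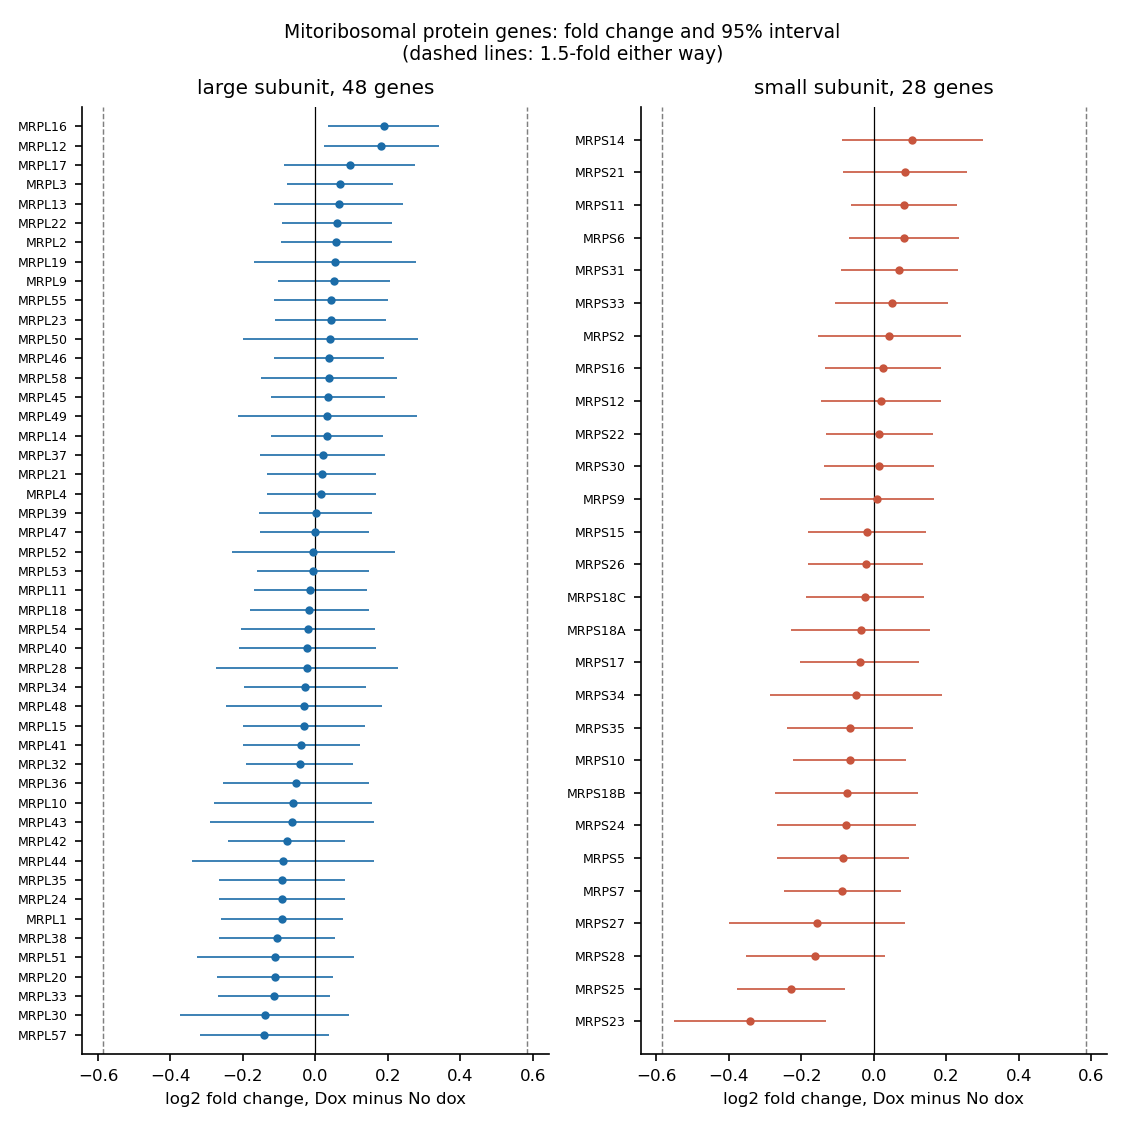
Log2 fold change (Dox minus No dox, horizontal axis) with its 95% interval for the 48 large-subunit and 28 small-subunit genes, each read by its brightest tested probe and sorted by fold change. Dashed lines mark 1.5-fold either way, and every interval lies inside them.

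The direction of change was divided among the members. Of 107 probes, 50 had a log2 fold change above 0 (46.7%, against 49.7% of all tested probes). The Dox arrays lay entirely above the No dox arrays for 5 member probes, beside 5.07% of all tested probes, and entirely below for 5, beside 4.24%. The first 5 include a probe of MRPL10 and a probe of MRPL3 that were detected on none of the No dox arrays and passed the filter through the Dox arrays alone.

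Among the large-subunit genes the median log2 fold change was -0.010, with a range from -0.14 to 0.19, and 21 of 48 were above 0. Among the small-subunit genes the median was -0.023, with a range from -0.34 to 0.11, and 12 of 28 were above 0. The cytosolic ribosomal proteins, which build the ribosome outside mitochondria, served as comparator: the median over 69 RPL and RPS genes was -0.0016, with a range from -0.25 to 0.16, and 33 were above 0. The median over all named genes was 0.0051. None of the 69 cytosolic genes was called.

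**Figure D2:**
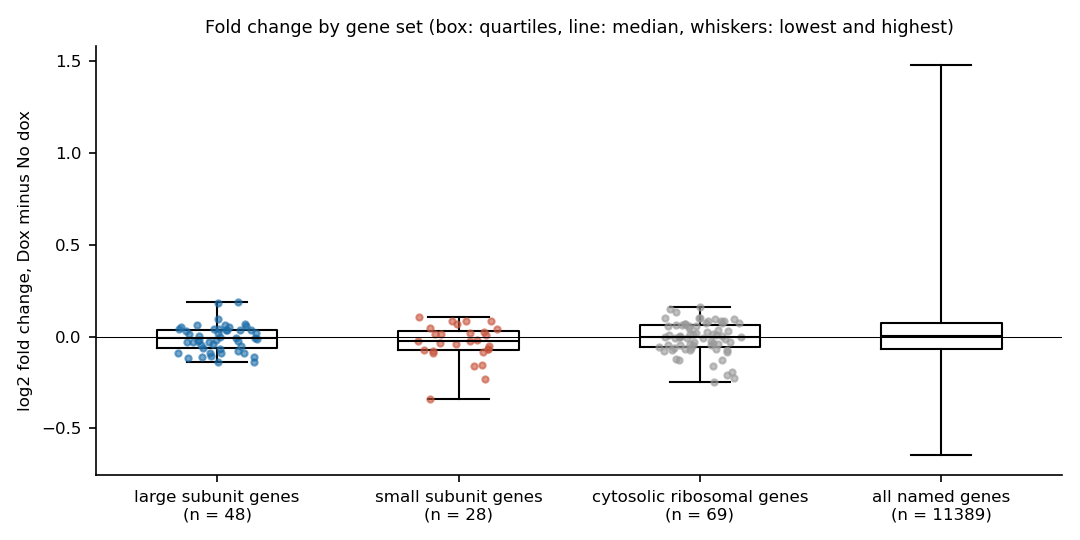
Log2 fold change (Dox minus No dox, vertical axis) of large-subunit, small-subunit and cytosolic ribosomal protein genes, and of all 11389 named genes. Boxes give quartiles and median, whiskers the lowest and highest gene, points single genes. The 3 ribosomal groups sit around 0, and all named genes include them.

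Large and small subunit were then compared on each array. For every gene the deviation from its mean over the 7 arrays was taken, and the median over small-subunit genes was subtracted from that over large-subunit genes. The result was -0.025, -0.014 and -0.023 in No dox replicates 2, 3 and 4. It was -0.0023, 0.012, 0.026 and 0.0086 in Dox replicates 1 to 4. The No dox arrays were all lower than the Dox arrays, and the groups did not overlap. The median deviation over all named genes did not overlap between the groups either. It lay between -0.0077 and -0.0016 in No dox and between 0.00014 and 0.0065 in Dox. For large minus small subunit the means were -0.0207 ± 0.0062 (SD, n = 3) and 0.011 ± 0.0116 (SD, n = 4), a difference of 0.032 on the log2 scale. This is a description with no test. Without No dox replicate 2 the difference was 0.013. Taken alone, the large-subunit median moved by 0.0055 and the small-subunit median by -0.026 from No dox to Dox, against SDs between arrays of 0.0111 to 0.0325.

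**Figure D3:**
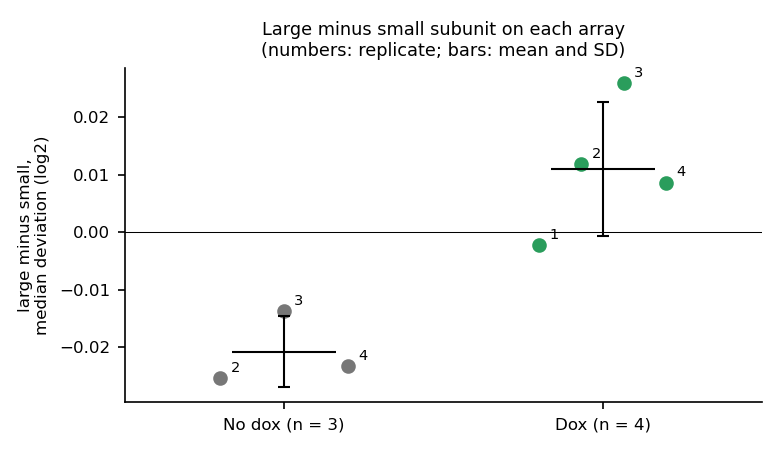
Median deviation of large-subunit genes minus that of small-subunit genes on each array (vertical axis, log2 scale), by group. Numbers are replicates, bars the mean and SD. The No dox arrays lie between -0.025 and -0.014 and the Dox arrays between -0.0023 and 0.026.

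The members were also split by origin. Some mitoribosomal proteins have counterparts in the bacterial ribosome and others were added in mitochondria. In the large subunit the median log2 fold change was -0.0082 over 28 genes with a bacterial counterpart and -0.021 over 17 genes specific to mitochondria. In the small subunit it was -0.019 over 17 genes with a bacterial counterpart and -0.035 over 10 specific to mitochondria. MRPL55, MRPL57, MRPL58 and MRPS28 were not classed. The 2 small-subunit genes at an unadjusted p under 0.05, MRPS23 and MRPS25, were lower and are both of the mitochondria-specific class. They are 7.14% of the 28 small-subunit genes, beside 3.46% of all named genes. The 2 large-subunit genes, MRPL16 and MRPL12, were higher and both have bacterial counterparts (4.17% of 48 genes, beside 5.01% of all named genes). No mitochondria-specific gene of the large subunit was among them, and the lowest of these had a log2 fold change of -0.11. The classes were not compared with a test.

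MRPS23, a mitochondria-specific protein of the small subunit, had the lowest fold change of all members. Its log2 signal was 9.07, 9.03 and 8.87 in No dox replicates 2, 3 and 4, and 8.76, 8.79, 8.51 and 8.55 in Dox replicates 1 to 4. All Dox arrays were lower than all No dox arrays, with Dox replicates 3 and 4 the lowest. The log2 fold change was -0.34 (95% interval -0.55 to -0.13), a fold of 0.789, with an unadjusted p of 0.00456 and an adjusted p of 0.38 in limma. The call of MRPS23 depended on how the signals were processed. It was called lower without background correction (-0.30, adjusted p = 0.030), with a background model that uses no negative controls (-0.31, adjusted p = 0.044), in the authors' processed values (-0.30, adjusted p = 0.031) and with a variance that follows intensity (-0.34, adjusted p = 0.015). The shares of all tested probes called lower under these settings were 0.129%, 0.109%, 0.129% and 0.202%. The authors' values and those without background correction gave nearly the same fold changes, so they are nearly the same alternative. Over the other alternatives its adjusted p lay between 0.19 and 0.62, and its log2 fold change over all of them between -0.40 and -0.29. MRPS23 was the sole member called under any alternative. MRPS23, MRPS25, MRPL16 and MRPL12 had no further tested probe, so their fold changes could not be compared between probes.

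MRPS25, likewise specific to the small subunit of mitochondria, was also lower on every Dox array. Its log2 signal was 7.44, 7.54 and 7.44 in No dox and 7.27, 7.23, 7.22 and 7.28 in Dox. The Dox arrays were close together and did not overlap the No dox arrays. The log2 fold change was -0.23 (95% interval -0.38 to -0.079) with an adjusted p of 0.40, so the difference did not pass the test over all probes.

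MRPL16 and MRPL12 had the highest fold changes among the genes of the large subunit. MRPL16, the counterpart of a bacterial protein of the large subunit, read 9.44, 9.56 and 9.55 in No dox and 9.70, 9.69, 9.76 and 9.67 in Dox. All Dox arrays were above all No dox arrays. Its log2 fold change was 0.19 (95% interval 0.036 to 0.34, adjusted p = 0.52). MRPL12, a protein of the stalk that recruits translation factors and also reported to bind the mitochondrial RNA polymerase, read 8.37, 8.52 and 8.40 in No dox and 8.59, 8.68, 8.60 and 8.58 in Dox. The groups did not overlap, with No dox replicate 3 nearest to the Dox arrays. Its log2 fold change was 0.18 (95% interval 0.023 to 0.34, adjusted p = 0.54).

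**Figure D4:**
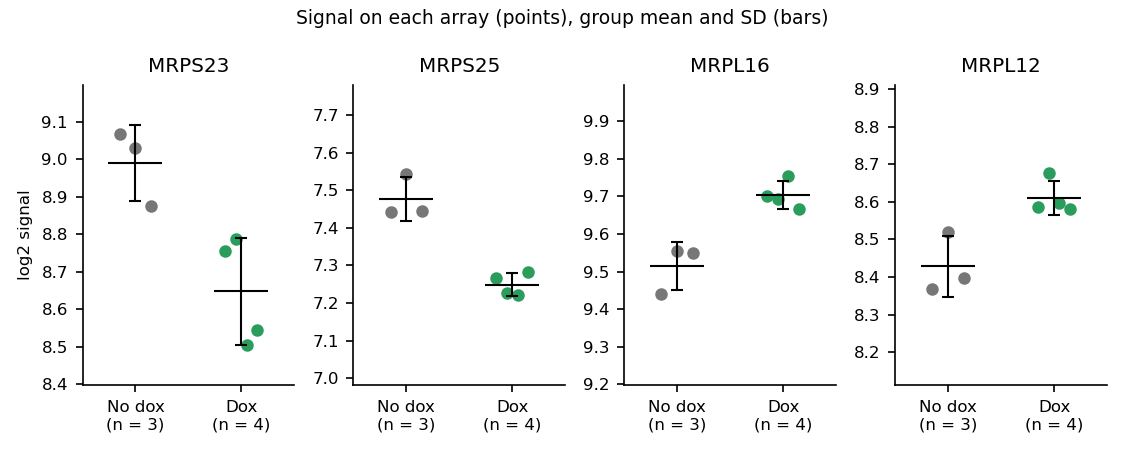
Log2 signal (vertical axis, 0.8 units in each panel) of MRPS23, MRPS25, MRPL16 and MRPL12 on each array, with group mean and SD. MRPS23 and MRPS25 are lower and MRPL16 and MRPL12 higher on all Dox arrays. None has an adjusted p under 0.05 in the main fit, and MRPS23 alone was called under some alternatives.

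The other 4 probes at an unadjusted p under 0.05 were dim, and the brighter probes of the same genes had smaller fold changes. Signals under a mean log2 value of 7 came from 23 member probes, with a median residual SD of 0.134 against 0.0697 for the 84 brighter ones. MRPL11, which with MRPL10 forms the base of the stalk, read 5.52, 5.73 and 5.79 in No dox and 5.33, 5.28, 5.40 and 5.47 in Dox with its dimmest probe. The groups did not overlap for this probe (log2 fold change -0.31, adjusted p = 0.38). Its brightest probe read 10.21, 10.09 and 10.15 in No dox and 10.22, 10.11, 10.10 and 10.11 in Dox, with a log2 fold change of -0.014, and the third probe had one of 0.036.

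The dim probes of MRPL10, MRPL3 and MRPL55 were detected on none of the No dox arrays. They entered the tested probes through the Dox arrays alone, so their direction is set in part by the detection limit. The dim MRPL10 probe read 4.60, 4.63 and 4.55 in No dox and 4.80, 4.68, 4.92 and 4.80 in Dox. It was detected on 3 of the 4 Dox arrays and no fold is given for it (adjusted p = 0.52). The brighter MRPL10 probe had a log2 fold change of -0.061. MRPL3 is a core protein near the catalytic centre of the large subunit. Its dim probe was detected on 2 of the 4 Dox arrays and no fold is given for it (adjusted p = 0.52). Its bright probe read 11.59, 11.49 and 11.52 in No dox and 11.62, 11.58, 11.63 and 11.58 in Dox, where the groups overlapped (log2 fold change 0.069, 95% interval -0.078 to 0.21). For the dim MRPL55 probe, detected on 1 Dox array, no fold can be given, and the other MRPL55 probes had log2 fold changes of 0.017 and 0.043. MRPL43 had 1 probe detected on no Dox array and on 1 No dox array. In all, 101 of the 107 member probes were detected on all 7 arrays.

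**Figure D5:**
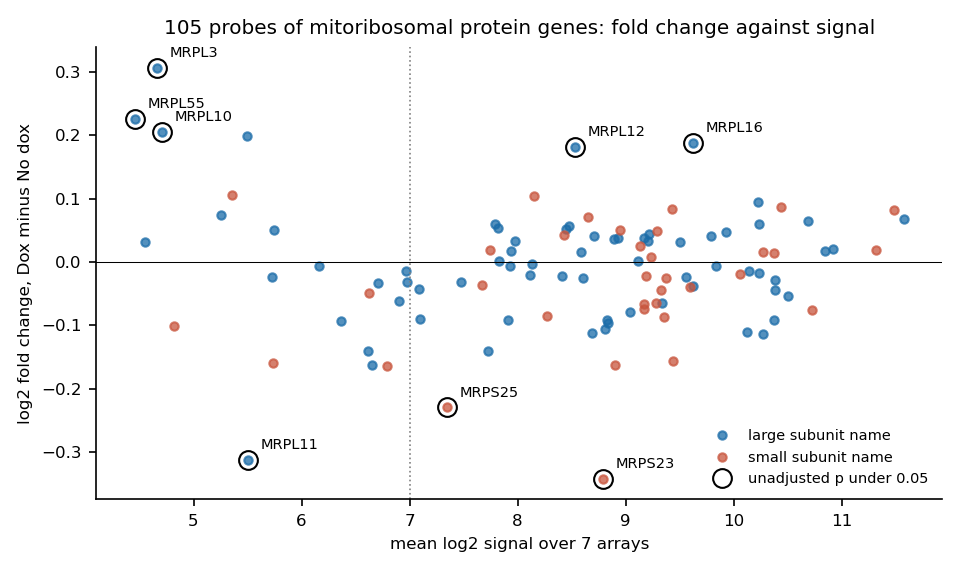
Log2 fold change (Dox minus No dox, vertical axis) against the mean log2 signal over the 7 arrays (horizontal axis) for the 105 probes of protein-coding members. Circles mark the 8 probes at an unadjusted p under 0.05, and the dotted line the log2 signal of 7, to the left of which 4 of them lie.

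Fold changes were also compared between probes of the same gene. Among 24 genes with several tested probes, 13 had probes whose fold changes differed in sign, and the median difference between the highest and the lowest probe of a gene was 0.11 on the log2 scale, beside a median absolute log2 fold change of 0.05 over the member probes. The median standard error of a member probe was 0.076, and fold changes this near 0 differ in sign readily. The same count over all genes with several probes was not made, so the 13 are no trait of the members. The largest of these differences involve dim probes, with a mean log2 signal under 7. The dim probes of MRPL10 and MRPL3 were detected on none of the No dox arrays, while those of MRPL11 and MRPL57 were detected on all 7 arrays. The differences were 0.35 for MRPL11, 0.27 for MRPL10, 0.24 for MRPL3 and 0.21 for MRPL57. MRPL57, known earlier as MRP63, had a log2 fold change of -0.14 (95% interval -0.32 to 0.037) with its brighter probe and 0.074 with the other. MRPS11 gave 0.083 and 0.10 with its 2 probes, and the brighter one read 9.37, 9.36 and 9.40 in No dox and 9.45, 9.46, 9.42 and 9.52 in Dox, without overlap but with an adjusted p of 0.76.

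The remaining members with the largest fold changes gave intervals that include 0. In the small subunit these were MRPS28 (-0.16, 95% interval -0.35 to 0.030), MRPS27 (-0.16, -0.40 to 0.087), MRPS14 (0.11, -0.089 to 0.30) and MRPS21 (0.086, -0.084 to 0.26), the latter pair counterparts of bacterial small-subunit proteins. In the large subunit MRPL17, the counterpart of a bacterial protein, had 0.094 (-0.087 to 0.28).

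MRPS7, MRPS12, MRPS16, MRPS22, MRPS30, MRPS34 and MRPL44 were followed for their known roles whatever their values, and their brightest probes gave intervals that include 0. MRPS12, which lies at the decoding centre, read 11.24, 11.36 and 11.33 in No dox and 11.38, 11.37, 11.36 and 11.21 in Dox (log2 fold change 0.019, 95% interval -0.15 to 0.18). The groups overlapped throughout. MRPS7, of the head of the small subunit, had a log2 fold change of -0.087 (95% interval -0.25 to 0.075). MRPS16, MRPS22 and MRPS34, in each of which inherited variants cause a deficiency of mitochondrial translation, had 0.026, 0.015 and -0.049, with intervals from -0.14 to 0.19, from -0.13 to 0.16 and from -0.29 to 0.19. MRPL44, which binds mitochondrial RNA, read 7.38, 7.11 and 6.95 in No dox and 7.11, 6.85, 7.11 and 7.15 in Dox, with wide overlap (log2 fold change -0.089, 95% interval -0.34 to 0.16). MRPS30, which carries a small-subunit name but sits in the large subunit in structures, had 0.014 (-0.14 to 0.17). Counting MRPS30 and MRPS18A with the large subunit left the medians at -0.010 and -0.023.

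Proteins that work with the mitoribosome were read from the same fit. Of 7 subunits or former names of subunits that do not start with MRPL or MRPS, 3 were tested: DAP3, CHCHD1 and GADD45GIP1, with log2 fold changes of -0.050, -0.0060 and -0.032. Of 10 tested translation factors, 7 were above 0, and none was called. The extremes were the initiation factors MTIF2 (-0.17, 95% interval -0.33 to 0.00031) and MTIF3 (0.14, -0.062 to 0.33). The elongation factor TUFM, which brings aminoacyl-tRNA to the ribosome, had -0.092. None of 23 tested genes of ribosome assembly and ribosomal RNA maturation was called, with a median of 0.0081. FASTKD2, an RNA-binding protein needed for assembly of the large subunit, read 7.63, 7.75 and 7.89 in No dox and 7.98, 7.95, 8.04 and 7.995 in Dox (log2 fold change 0.23, adjusted p = 0.48). The Dox arrays of FASTKD2 were all above the No dox arrays.

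None of 19 tested genes of mitochondrial aminoacyl-tRNA synthesis was called (median -0.021). None of 15 mitochondrial chaperones and proteases was called (5 above 0, median -0.045), and HSPE1, a chaperonin subunit, and its partner HSPD1 had -0.27 and 0.098. No tested probe carried the name of any of the 15 genes of mitochondrial DNA that were looked for, so the products of mitochondrial transcription were not analysed here. The list of mitochondrial stress and ATF4 target genes had 10 of 14 tested genes above 0, with a median of 0.038, beside 51.9% of all named genes above 0. The list was chosen with earlier results of these data known, and the study had already reported GDF15 as upregulated. The counts of this list are therefore no independent result. In this list 1 gene was called higher, where 0.202% of all named genes were. This was GDF15, a secreted cytokine induced by several kinds of stress, which read 9.25, 9.22 and 9.27 in No dox and 10.17, 9.88, 9.94 and 10.04 in Dox. All Dox arrays were above all No dox arrays, by 0.76 on the log2 scale (95% interval 0.58 to 0.94, adjusted p = 0.0059). The call was lost without No dox replicate 3 (0.75, adjusted p = 0.051) and with the replicate number as a block (0.71, adjusted p = 0.11), and its log2 fold change lay between 0.70 and 0.80 over all alternatives. TRIB3 (0.26) and DDIT3 (0.29), both known targets of ATF4, had adjusted p of 0.46 and 0.51. The serine and one-carbon enzymes PHGDH, PSAT1, SHMT2 and MTHFD2 had 0.034, 0.011, -0.057 and -0.097.

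RefSeq windows from 250 bases before to 50 bases after the gene start were held for 68 of the 76 member genes, and no window was used for MRPL2, MRPL10, MRPL13, MRPL15, MRPL21, MRPL23, MRPL35 and MRPS28. The letters CACGTG, to which MITF and other factors of its family bind, occurred in 8.82% of member windows (6 genes), against 7.26% of 35116 windows of all genes and 8.88% of 15843 windows of protein-coding genes. The 6 genes, MRPL22, MRPL36, MRPL37, MRPL45, MRPL49 and MRPS18C, had log2 fold changes between -0.054 and 0.061, and none had an unadjusted p under 0.05. CATGTG occurred in 5.88% of member windows and 11.1% of all windows (8.43% of protein-coding ones). Its 4 genes, MRPL24, MRPL30, MRPL32 and MRPL43, had fold changes from -0.14 to -0.044. The M-box TCATGTG occurred in MRPL30 alone (1.47%, against 2.92% of all windows), and MRPL30 read 8.01, 7.75 and 7.65 in No dox and 7.72, 7.81, 7.52 and 7.602 in Dox. The groups overlapped (log2 fold change -0.14, 95% interval -0.37 to 0.094). TCACGTGA occurred in 2 member windows (2.94%), against 0.98% of all and 1.43% of protein-coding ones. GCGCATGCG occurred in 3 member windows (4.41%), against 1.92% and 2.76%.

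The letters CCGGAAG, bound by factors of the ETS family, occurred in 28 member windows (41.2%), against 10.3% of all windows and 14.2% of protein-coding ones. In 18 of the 28 a match began within 60 bases before the start. ATGGCGG, the core bound by YY1, occurred in 24 member windows (35.3%), against 5.55% of all and 7.63% of protein-coding ones, and in 19 of the 24 every match lay after the start. These letters are also those of a start codon followed by an alanine codon, and the search does not separate both readings. The 28 genes with CCGGAAG had a median log2 fold change of -0.022 and the 24 with ATGGCGG one of -0.012, beside -0.018 over all 68 genes with a window.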

How the data were processed

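RNA of PC3 TRIPZ-MITFA cells was measured on 3 No dox and 4 Dox arrays, grouped by their labels. The authors deposited signal intensity values and detection p-values for 47323 probes, extracted with GenomeStudio (version not given in the sources used here). They also deposited log2 values for 19337 probes, which per the study's methods went through background correction, log2 transformation and then quantile normalization in lumi, and whose columns all have a median of 7.16. In the fits, these values and the values without background correction each gave 101 called probes and nearly the same fold changes. The deposited values thus behaved like values without background correction.

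From the intensity values, background was corrected with limma's neqc (limma 3.58.1 under R 4.3.3; offset 16). Negative controls were derived from detection p-values, and the arrays were quantile-normalized as log2 values. A limma model was fitted to the 19337 probes detected (p-value under 0.01) on 1 or more arrays (empirical Bayes, no block), and p-values were adjusted with Benjamini-Hochberg over all of them. Probes were called at an adjusted p under 0.05. The number of arrays limits the precision. No pair of arrays had identical signals. Gene names came from the platform annotation: 15060 tested probes carry 1 symbol, 2 several and 4275 none that is listed. Each gene was represented by its brightest tested probe. For a probe detected on no array of a group, no fold is given. Its value enters only the counts, the medians, the differences between probes and the figures.

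The members, lists and classes were chosen with earlier results of these data known. Members named are those called, those with a probe at an unadjusted p under 0.05, the 5 highest and 5 lowest fold changes among the probes that stand for a gene, up to 4 genes whose probes differ most, and 9 genes of known role. MRPL30, MRPL37, MRPL43, MRPL47, MRPS11, HSPD1, TUFM and the enzymes of serine and one-carbon metabolism were named after their values were seen. The same holds for the members listed with promoter matches. Up to 3 genes of a list with the smallest p were open to naming. Alternatives were other background corrections, the authors' values, other filters, an intensity trend, array weights, a replicate block, each array left out, and for the subunits another choice of probe and of membership. Same-numbered arrays did not deviate together (correlations of their deviations from the group means -0.035, 0.009 and -0.021), so the numbers were not taken as pairs. No chip identifier was used.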

Additional observations from a re-analysis of the deposited data

Results flagged for a closer look

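Of 35 groups of 4 Dox arrays checked among the probes of the named members, 3 held an array that stood apart from the others by its gap relative to the range of the group, past the 95% critical value of Dixon's test. Chance alone gives about 1 in 20. For MRPL44 the ratio was 0.868, with Dox replicate 2 at 6.85 and the others at 7.11 to 7.15. For the brightest MRPL11 probe it was 0.86, with Dox replicate 1 at 10.22 and the others at 10.10 to 10.11. For the brightest MRPS12 probe it was 0.899, with Dox replicate 4 at 11.21 and the others at 11.36 to 11.38. A different replicate stood apart each time, and none of these probes was called under any alternative.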

How the results depend on the processing

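Of 333 comparisons of a named member probe with an alternative, 319 kept direction and side of the threshold, 4 became called (all of MRPS23) and 10 changed sign without a call. The number of members called lower was 1 (MRPS23) without background correction, with normexp without negative controls, in the authors' values and with the intensity trend, and 0 otherwise; none was called higher under any alternative. All tested probes called rose from 26 to 101, 87, 101 and 132 under these settings in that order, and were 34 with detection on every array of a group, 21 without a filter, 24 with array weights and 12 to 18 with an array left out. Members at an unadjusted p under 0.05 and higher (5) numbered 2 without background correction, 3 with normexp, 2 in the authors' values, 2 with detection on every array of a group, 3 with the intensity trend, and 2 to 5 with an array left out. Those lower (3) numbered 5 without background correction and 5 in the authors' values. With the replicate number as a replicate block (6 arrays), 1 member was higher at an unadjusted p under 0.05, none was called, and 6 probes were called among all tested, against 18 on the same 6 arrays without the block. With an array left out, the large-subunit median lay between -0.023 (without No dox replicate 4) and 0.013 (without No dox replicate 2), the small-subunit median lay between -0.038 and 0.0055, its highest value without No dox replicate 3, and the difference of large and small subunit between 0.013 (without No dox replicate 2) and 0.039. The 95% interval lay within 1.5-fold for 102 or 103 of the 103 member probes detected in both groups under each alternative that tested all of them, and for 102 of 102 with detection on every array of a group. The median over all tested probes stayed within 0.002 of 0 throughout. Signals near background limit the 23 dim member probes. The cause of these differences was not tested.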
